A study of Rattus norvegicus with 30 samples.

Results

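Lungs of newborn rats in the arm labelled 85% oxygen were compared between postnatal day 3 and postnatal day 1. The comparison rests on 6 of the 30 libraries of the series, all 3 labelled 85% oxygen and day 3 and all 3 labelled 85% oxygen and day 1, and on every gene with enough counts. The series models bronchopulmonary dysplasia, the chronic lung disease of infants born preterm who receive oxygen. Pups were divided at random, and within a day of birth 1 arm was put in hyperoxia and the other kept in room air, labelled 21% oxygen. Both arms were exchanged daily to even out nursing, and lung pieces without trachea were rinsed in PBS before RNA was made into libraries with an mRNA kit. The strain, the sex and any genetic change are not given in the labels. The labels state 12 rats per arm while each arm holds 15 libraries. Nothing in the labels ties the 3 libraries of a group to 3 animals. The p-values thus reflect only variation among libraries, part of which may be technical. In the main fit that variation was estimated within the groups of all 30 libraries, not from the 6 compared libraries alone. Cdkn1a, the p53 target p21, and Gdf15, a stress cytokine, are known to be induced by hyperoxia, yet at day 14 their means were 29.4 and 5.04 CPM in the arm labelled 85% against 430 and 137 CPM in the arm labelled 21%. The groups are therefore called 85%-labelled and 21%-labelled, and every direction rests on the labels as they stand.

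In rodents embryonic globins give way to adult globins before birth, and young red cells, the reticulocytes, still carry the mRNA of globin, of haem synthesis and of the membrane skeleton. In whole lung such transcripts can come from the blood that the tissue holds, and their source was not tested here. GATA1 and KLF1 are the factors best known to act on red cell genes, the first at sites with the core GATA and the second at sites with the letters CACCC.

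The 6 libraries held 15330584 to 17381359 counts. Levels are given as CPM, a gene's count scaled to the normalised total of its library. Lung identity was plain, with the surfactant gene Sftpc at 14882 to 44198 CPM, Sftpb at 2537 to 4534 CPM, the alveolar type 1 marker Ager at 1239 to 2023 CPM and the endothelial cadherin Cdh5 at 869 to 1142 CPM over the 6 libraries. Mitochondrially encoded genes took 19.1%, 5.31% and 11.5% of the counts in the 3 day 1 libraries and 5.38%, 4.66% and 6.56% at day 3 (exact two-sided permutation p = 0.3, where 0.1 is the smallest p that 3 against 3 allows). Their share was thus highest in day 1 replicates 1 and 3, and day 1 replicate 2 lay within the day 3 range. Haemoglobin genes took 2.09%, 1.58% and 2.46% of counts at day 1 and 3.72%, 5.26% and 5.34% at day 3, with no overlap (exact two-sided permutation p = 0.1). The trend of level with gene length, a rank correlation across genes of each library's deviation from the series mean, was -0.359 to -0.215 at day 1 and -0.443 to -0.416 at day 3, again with no overlap (exact p = 0.1).

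**Figure D1:**
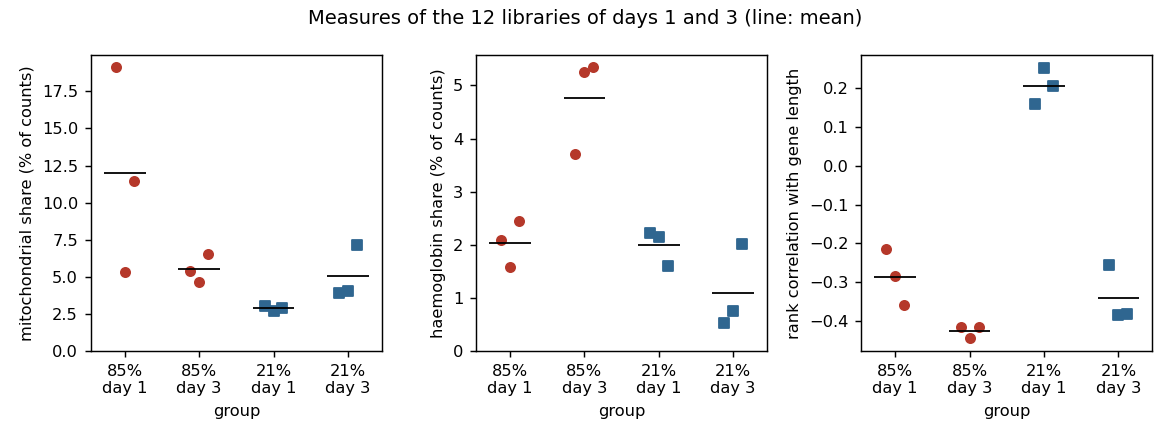
Share of counts from mitochondrially encoded genes (%), share from haemoglobin genes (%) and rank correlation of level with gene length in the 12 libraries of days 1 and 3; each symbol is 1 library and each line a group mean. The 85%-labelled day 3 libraries held 3.72% to 5.34% haemoglobin counts against 1.58% to 2.46% at day 1, and 2 of the 3 day 1 libraries had mitochondrial shares of 11.5% and 19.1%.

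Between day 1 and day 3 few genes passed the test, and those that rose included the lipoxygenase gene Alox15, with the smallest adjusted p, and 6 genes of an erythroid list. Genes were called where the adjusted p was under 0.05 (edgeR's quasi-likelihood test, Benjamini-Hochberg over 17571 genes) and the log2 fold change was 0.5 or more in size. In all 37 genes were called, which is 0.211% of those tested: 27 rose (0.154%) and 10 fell (0.0569%). None of the 37 overlapped between the 3 day 1 and the 3 day 3 libraries, while among all genes tested 6.63% were higher and 5.6% lower without overlap. The median log2 fold change over all genes tested was -0.01. The count rests on single libraries: it was 3 without day 1 replicate 1, 1747 without day 1 replicate 2, 9 without day 1 replicate 3, 35, 1 and 23 without day 3 replicates 1, 2 and 3, and 4 without the 4 libraries of the series above 6% mitochondrial counts. Fitted on the 6 libraries alone, 2 genes were called and neither was among the 37.

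**Figure D2:**
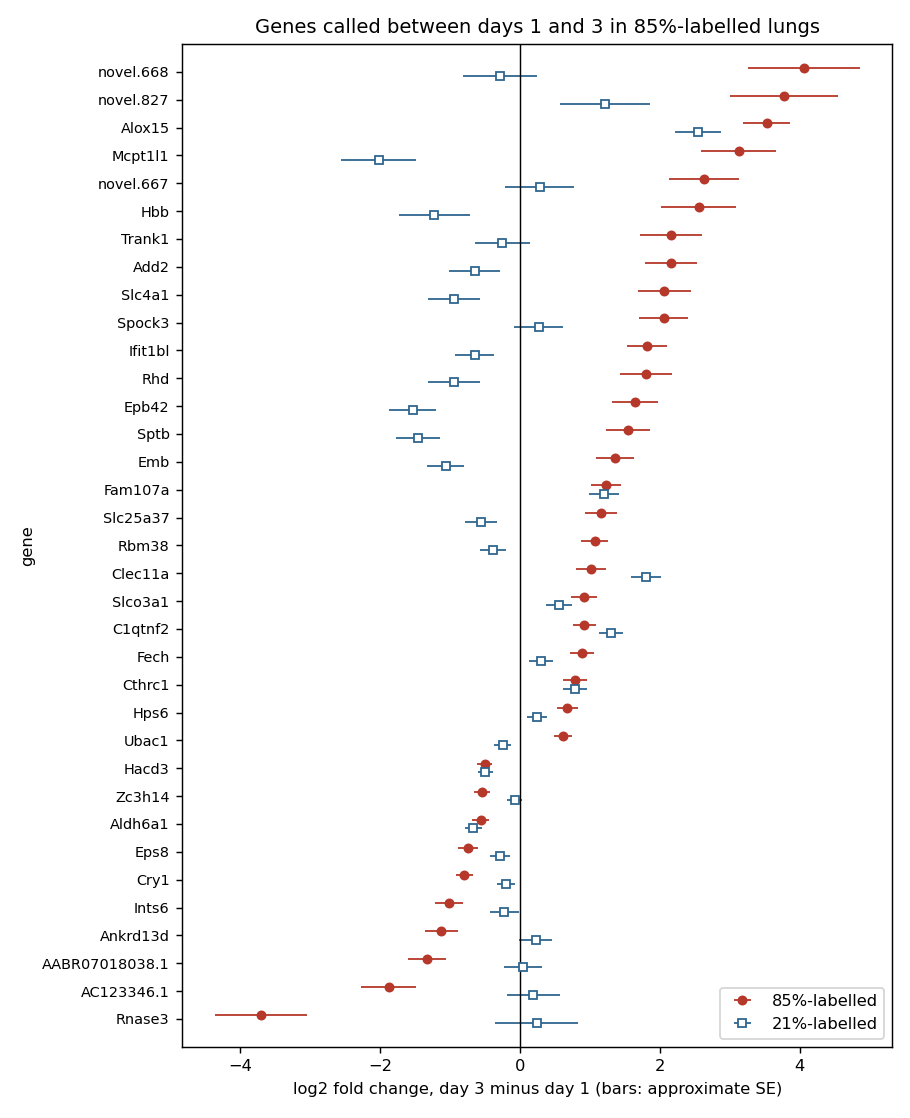
Log2 fold change from day 1 to day 3 of 35 of the 37 genes called in the 85%-labelled lungs (filled circles), beside the same step in the 21%-labelled lungs (open squares); bars are approximate standard errors and 3 libraries stand behind each group mean. Alox15 and Fam107a lie to the right of 0 in both arms, whereas Slc4a1, Epb42, Sptb, Hbb and Mcpt1l1 lie to the right in the 85%-labelled and to the left in the 21%-labelled arm; the 3 labels that are authors' own IDs had at most 0.456 CPM in any 85%-labelled day 1 library.

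Alox15 encodes the 12/15-lipoxygenase, which oxygenates polyunsaturated fatty acids and is known from reticulocytes, eosinophils and macrophages. The gene (ENSRNOG00000019183) lies on chromosome 10, 56953691 to 56962161, in the coordinates of the deposited table, whose rat build no source used here gives. Its level was 26.8, 77.4 and 85.6 CPM in the 3 day 1 libraries and 612, 986 and 589 CPM in the 3 day 3 libraries. Every day 3 library stood above every day 1 library, and the log2 fold change was 3.53 (SE 0.34, 11.5-fold, adjusted p = 4.49e-06, edgeR). Alox15 was the 1 gene called in each of the 6 fits that left out 1 of these libraries (log2 fold change 3.18 to 3.82), and it was called without the libraries above 6% mitochondrial counts (3.37, adjusted p = 0.0027). With the 6 libraries fitted alone, it was not called (3.52, adjusted p = 0.252). Alox15 was also called higher in the 21%-labelled arm, from 27.5, 32.3 and 34.2 CPM to 148, 163 and 236 CPM (2.54, SE 0.33, adjusted p = 9.98e-05). The difference between the arms was 0.98 (SE 0.44, adjusted p = 0.13) and did not pass the test. In the 85%-labelled arm the means of days 7, 10 and 14 were 606 ± 107, 864 ± 33.3 and 229 ± 22 CPM (SD, n = 3).

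Red cell genes supplied 6 of the 27 rises. Of 23 genes on an erythroid list, 18 had enough counts, and 6 of these rose, among them the anion exchanger Slc4a1, the membrane skeleton gene Sptb, the skeleton linker Epb42, the blood group gene Rhd and the globin gene Hbb. None fell, and the median log2 fold change of the 18 was 1.57. An unadjusted p under 0.05 was reached in the higher direction by 14 of the 18, against 5.81% of all genes tested. Without overlap 13 of the 18 were higher, against 6.63% of all genes. In bulk tissue more blood in the sample, more young red cells in the blood and more RNA per cell cannot be told apart.

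Promoter windows of 4 of these 6 genes are shown because the genes moved together. They are RefSeq sequences of the rat assembly GRCr8, from 250 bases before to 50 bases after the annotated start, written in the direction of the gene. Capitals mark AGATAA or its reverse complement TTATCT, a spelling of the GATA site, and CACCC or its reverse complement GGGTG. The windows are Rhd at chr5:152370950-152371249 on the plus strand, Sptb at chr6:101170229-101170528 on the minus strand, Hbb at chr1:167663672-167663971 on the minus strand and Epb42 at chr3:128451634-128451933 on the minus strand.
Rhd: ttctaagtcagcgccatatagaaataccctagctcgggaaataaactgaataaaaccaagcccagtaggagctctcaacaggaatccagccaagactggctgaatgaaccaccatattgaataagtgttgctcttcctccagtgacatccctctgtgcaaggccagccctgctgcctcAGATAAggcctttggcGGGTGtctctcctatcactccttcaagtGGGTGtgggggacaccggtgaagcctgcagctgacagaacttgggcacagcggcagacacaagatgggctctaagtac
Sptb: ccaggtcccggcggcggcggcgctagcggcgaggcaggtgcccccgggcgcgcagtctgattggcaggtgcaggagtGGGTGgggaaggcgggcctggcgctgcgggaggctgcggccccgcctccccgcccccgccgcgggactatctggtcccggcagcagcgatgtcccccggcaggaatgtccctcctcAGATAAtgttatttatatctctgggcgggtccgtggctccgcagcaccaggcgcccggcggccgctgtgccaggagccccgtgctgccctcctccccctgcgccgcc
Hbb: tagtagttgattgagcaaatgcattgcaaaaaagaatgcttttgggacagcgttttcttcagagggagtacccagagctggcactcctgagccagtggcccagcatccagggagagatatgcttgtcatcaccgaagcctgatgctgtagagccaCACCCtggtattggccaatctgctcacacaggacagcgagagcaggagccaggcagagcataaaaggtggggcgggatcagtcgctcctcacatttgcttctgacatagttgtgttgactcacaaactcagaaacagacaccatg
Epb42: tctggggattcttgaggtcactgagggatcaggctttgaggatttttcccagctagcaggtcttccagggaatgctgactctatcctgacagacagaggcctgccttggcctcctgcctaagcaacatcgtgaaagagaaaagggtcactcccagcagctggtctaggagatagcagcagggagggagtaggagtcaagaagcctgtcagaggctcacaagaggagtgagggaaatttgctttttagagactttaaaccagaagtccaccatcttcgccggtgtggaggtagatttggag
AGATAA on either strand stood in 2 of these 4 windows, Rhd and Sptb, and in 3095 of 27457 rat promoter windows of the same length (11.3%). CACCC on either strand stood in 3 of the 4, Rhd, Sptb and Hbb, and in 15126 of the 27457 (55.1%). Both were searched as exact letters and do not overlap each other. The Epb42 window held neither, which says only that these letters are not in this window.

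Slc4a1, which encodes band 3, the chloride and bicarbonate exchanger of the red cell membrane (ENSRNOG00000020951, chromosome 10, 90296141 to 90312386), stood at 27.6, 41.7 and 43.7 CPM at day 1 and at 93.6, 194 and 185 CPM at day 3. Day 3 replicate 1 was the lowest of the day 3 libraries and still lay above every day 1 library, and the log2 fold change was 2.06 (SE 0.38, adjusted p = 0.023, edgeR). Sptb, the beta chain of spectrin, the mesh under the red cell membrane (chromosome 6, 99659651 to 99783047), stood at 5.74, 12.8 and 8.42 CPM and then at 17.8, 32.2 and 28.6 CPM (1.54, SE 0.31, adjusted p = 0.0391). Sptb thus kept its day 1 and day 3 libraries apart, with replicate 1 the lowest on either day.

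Epb42, or protein 4.2, ties band 3 to the skeleton (chromosome 3, 112965653 to 112985318), and its level was 4.61, 3.36 and 3.74 CPM at day 1 and 7.26, 14.4 and 14.9 CPM at day 3 (1.64, SE 0.33, adjusted p = 0.0389, edgeR). Rhd, a member of the Rh complex of the same membrane (chromosome 5, 153197459 to 153232687), stood at 2.51, 7.7 and 5.93 CPM and then at 11.2, 23.8 and 21.7 CPM (1.81, SE 0.37, adjusted p = 0.0391). In both genes day 3 replicate 1 was the lowest of its day and the days did not overlap.

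Further erythroid members were higher by value but did not pass the test over all genes. Alas2, which catalyses the first step of haem synthesis in red cells, had 78.9, 65.5 and 84.2 CPM at day 1 and 166, 261 and 237 CPM at day 3 (log2 fold change 1.54, adjusted p = 0.0678, edgeR). Rhag, the partner of Rhd, gave 2.32 (adjusted p = 0.112), Klf1, the red cell transcription factor, 1.64 (adjusted p = 0.142), Ahsp, the alpha globin chaperone, 1.60 (adjusted p = 0.121) and the ankyrin gene Ank1 1.14 (adjusted p = 0.178). The libraries of the 2 days did not overlap in any of these 5 genes. DESeq2 called 10 members higher and 1 lower, while it called 1.06% of all genes. With mitochondrial share as a covariate edgeR called 11 members higher, although Sptb lost its call there (log2 fold change 1.06, adjusted p = 0.0533). That fit called 4.12% of all genes, against 0.211% without the covariate. The 6 calls fell to 0 without day 1 replicate 1, without day 3 replicate 2, without day 3 replicate 3 or without the libraries above 6% mitochondrial counts, and to 1 without day 1 replicate 3, while the list's median lay between 1.39 and 1.63 in these fits.

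**Figure D3:**
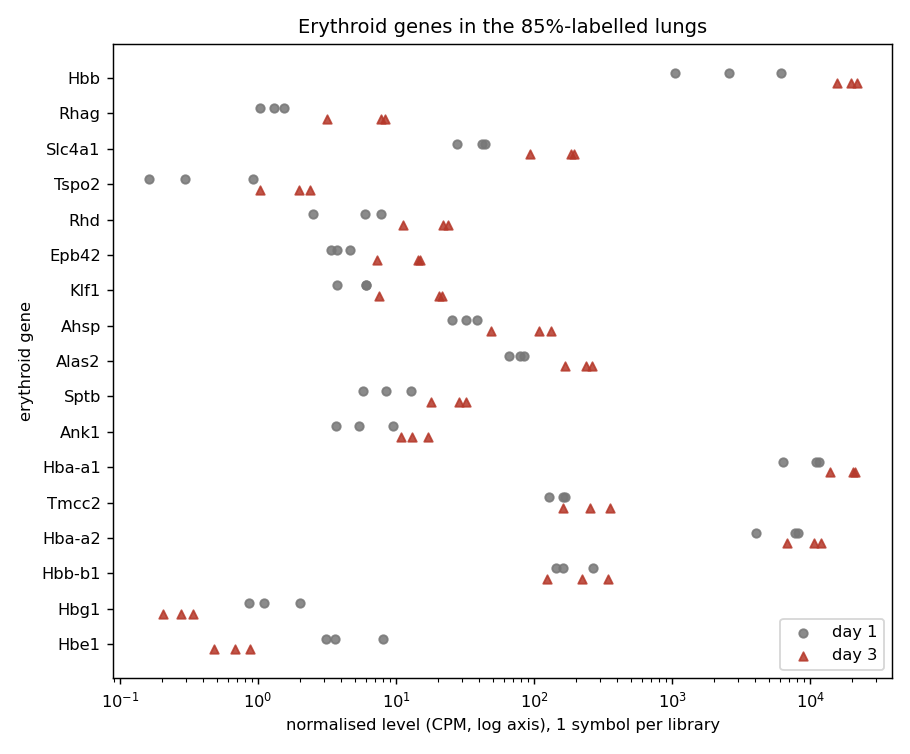
Level (CPM, log axis) of 17 of the 18 tested genes of the erythroid list in each 85%-labelled library; circles are the 3 day 1 and triangles the 3 day 3 libraries, ordered by log2 fold change. From Hbb to Hba-a1 the day 3 libraries lie to the right of the day 1 libraries, while Hbe1 and Hbg1 at the bottom lie to the left.

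Globin genes differed from each other. Hbb, an adult beta globin gene (ENSRNOG00000058105, chromosome 1, 168971274 to 168972725), stood at 1053, 2563 and 6090 CPM at day 1 and at 15564, 21763 and 19632 CPM at day 3 (log2 fold change 2.55, SE 0.53, adjusted p = 0.0395, edgeR). Its day 1 libraries ranged widely, with replicate 1 lowest, and all lay below the day 3 libraries. As a share of all haemoglobin counts Hbb took 3.95%, 16.4% and 21.2% at day 1 and 39.8%, 38.2% and 33.1% at day 3. The alpha globin gene Hba-a1 stood at 11486, 6320 and 11020 CPM and then at 13843, 20371 and 21051 CPM (0.94, adjusted p = 0.378), and its share of haemoglobin counts was 43.1%, 40.4% and 38.4% and then 35.4%, 35.8% and 35.5%. LOC100134871, a further beta globin gene of this table, took 20.8%, 15.4% and 11.9% of haemoglobin counts at day 1 and 6.35%, 5.92% and 9.89% at day 3. Its own level overlapped between days, at 5538, 2403 and 3421 CPM and then 2483, 3372 and 5862 CPM (0.04, adjusted p = 0.988). Hbb thus took a larger share at day 3, and LOC100134871, Hba-a1 and Hba-a2 smaller shares, each without overlap. These shares are parts of the same total, so a larger Hbb share lowers the others whatever their own levels. By level Hba-a1 was higher at day 3 without overlap, though not called, and Hba-a2 overlapped between days. Some globin genes are near-identical copies of each other. The handling of reads shared between such copies is not known from the sources used here, so the split between them is uncertain.

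The embryonic globins went the other way at very low levels. Hbe1, the epsilon chain, had 8, 3.08 and 3.59 CPM at day 1 and 0.48, 0.675 and 0.88 CPM at day 3 (log2 fold change -2.83, SE 0.62, adjusted p = 0.0615, edgeR). Hbg1, a gamma chain, had 2.02, 0.855 and 1.1 CPM and then 0.274, 0.337 and 0.203 CPM (-2.24, SE 0.69, adjusted p = 0.218). Neither passed the test, though their libraries did not overlap between days. In the 21%-labelled arm Hbe1 was called lower over the same days (-1.83, adjusted p = 0.0297), and the difference between the arms did not pass the test (adjusted p = 0.418).

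Genes outside the list rose as well, and 4 with a known part in red cells, grouped here after their values were seen, are given with no count to set them against. Fech, ferrochelatase, which puts the iron into haem (chromosome 18, 59941992 to 59975192), stood at 45.8, 45.1 and 44.7 CPM at day 1 and at 67.9, 94.7 and 88.1 CPM at day 3 (0.89, SE 0.17, adjusted p = 0.035, edgeR). Slc25a37, mitoferrin 1, which carries iron into the mitochondria of red cell precursors, stood at 11.9, 8.44 and 6.81 CPM and then at 15.8, 25.4 and 19.4 CPM (1.16, SE 0.22, adjusted p = 0.035). Rbm38, an RNA-binding protein that in mice acts on splicing in late red cell precursors, stood at 34.9, 36.3 and 30 CPM and then at 46.7, 81.8 and 83.7 CPM (1.07, SE 0.19, adjusted p = 0.0171). All 3 kept the days apart. Add2, beta adducin of the membrane skeleton, which was chosen after its values were seen, went from 0.97, 4.62 and 2.49 CPM to 9.11, 15.7 and 11.7 CPM (2.16, SE 0.37, adjusted p = 0.0159).

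Mast cell genes were the other blood-derived group with a gene that rose. Mast cells are tissue immune cells filled with proteases, and 9 of the 12 genes on a list of mast cell and basophil markers had enough counts. Mcpt1l1, a mast cell protease gene on chromosome 15, 34609776 to 34612432, stood at 2.1, 2.05 and 3.44 CPM at day 1 and at 19.4, 29.3 and 17.6 CPM at day 3 (log2 fold change 3.12, SE 0.54, adjusted p = 0.0159, edgeR). Its lowest day 3 library was far above its highest day 1 library. It was the 1 member of the 9 called, none was called lower, 7 were higher and 2 lower by value, and the median of the 9 was 1.44 against -0.01 over all genes. DESeq2 called 3 of the 9 higher, while it called 1.06% of all genes. Unadjusted p under 0.05 was reached by 7 of the 9, all higher, against 5.81% of all genes in that direction. The chymase Cma1 had 1.7, 2.96 and 2.86 CPM and then 8.36, 8.63 and 6.77 CPM (1.65, adjusted p = 0.145), and the carboxypeptidase Cpa3 had 1.94, 3.02 and 4.47 CPM and then 8.98, 12.3 and 9.14 CPM (1.68, adjusted p = 0.151). Neither passed the test, and neither overlapped between days. The list's summed level was 252 to 313 CPM at day 1 and 311 to 404 CPM at day 3, most of it from Kit and Gata2, which other lung cells also express, and Kit had 131, 154 and 177 CPM and then 138, 160 and 122 CPM. Mcpt1l1 lost its call without the libraries above 6% mitochondrial counts (3.56, adjusted p = 0.291), and protease genes of this family have close copies whose shared reads make single values uncertain.

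The remaining rises belonged to none of the lists. Fam107a, an actin-associated protein (chromosome 15, 18399515 to 18415965), stood at 7.03, 5.93 and 6.15 CPM at day 1 and at 16.4, 14.2 and 14.2 CPM at day 3 (log2 fold change 1.23, SE 0.21, adjusted p = 0.0159, edgeR). C1qtnf2, a secreted relative of complement C1q (chromosome 10, 29067102 to 29084035), stood at 14.8, 17.6 and 18.3 CPM and then at 31.7, 33.6 and 30.8 CPM (0.92, SE 0.16, adjusted p = 0.0171). Both genes had tight groups on either day, far apart from each other. Emb, embigin, a membrane partner of lactate transporters, stood at 2.75, 8.72 and 6.23 CPM and then at 13.3, 17.1 and 15.4 CPM (1.36, SE 0.27, adjusted p = 0.035). The transporter Slco3a1 gave 0.92 (SE 0.19, adjusted p = 0.0391) and the secreted growth factor Clec11a 1.02 (SE 0.21, adjusted p = 0.0395). The other 10 genes that rose, chosen after their values were seen, included Ubac1, Hps6, Cthrc1, Ifit1bl, Spock3, Trank1 and 3 of the authors' own IDs, which carry no gene name. Their log2 fold changes began at 0.61 for Ubac1, and the 3 authors' own IDs had at most 0.456 CPM in any 85%-labelled day 1 library.

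Of the 10 genes that fell, Cry1 had the smallest adjusted p. Cry1 encodes cryptochrome 1, a repressor in the circadian clock (ENSRNOG00000006622, chromosome 7, 24534615 to 24634097). It stood at 41.8, 40.3 and 40 CPM at day 1 and at 24.9, 22.6 and 23 CPM at day 3 (log2 fold change -0.79, SE 0.12, adjusted p = 0.0076, edgeR). The 3 libraries of each day lay close together and the days far apart. Of 17 tested genes on a circadian list of 18, Cry1 alone was called, none rose, and the median was -0.01, the value over all genes. The clock repressor Per2 had 68.8, 33.1 and 53.5 CPM and then 30.2, 27.1 and 34.7 CPM (-0.75, adjusted p = 0.12), and its days overlapped. Per1 (1.06, adjusted p = 0.313) and Nr1d1 (0.70, adjusted p = 0.344) were higher by value and did not pass. The labels give no clock time of tissue collection. Cry1 lost its call without the libraries above 6% mitochondrial counts (-0.77, adjusted p = 0.172).

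Eps8, an actin-binding substrate of growth factor receptors (chromosome 4, 171475567 to 171591882), fell from 78.7, 74.4 and 72.2 CPM to 45.2, 42.2 and 47.9 CPM (-0.74, SE 0.14, adjusted p = 0.035, edgeR). Aldh6a1, an enzyme of valine breakdown in mitochondria, fell from 128, 91.3 and 117 CPM to 76.3, 71.3 and 80.5 CPM (-0.56, SE 0.12, adjusted p = 0.0466). Zc3h14, which binds the poly(A) tails of mRNA, fell from 102, 84.3 and 75.2 CPM to 65.5, 53.6 and 60.2 CPM (-0.54, SE 0.11, adjusted p = 0.0391). The days did not overlap in any of these 3 genes. Ints6, of the Integrator complex that processes nascent RNA, gave -1.01 (SE 0.21, adjusted p = 0.0391), and Hacd3, an enzyme of very long chain fatty acid synthesis, gave -0.50 (SE 0.11, adjusted p = 0.0477). Aldh6a1, Ints6 and Hacd3 lost their calls with mitochondrial share as a covariate (adjusted p = 0.0762, 0.106 and 0.0925). The other 4 that fell, chosen after their values were seen, were Rnase3, Ankrd13d, AC123346.1 and AABR07018038.1. Rnase3, of a family of eosinophil ribonucleases with close copies, had 14.4, 5.02 and 6.52 CPM at day 1 and 0.411, 0.675 and 0.88 CPM at day 3 (-3.70, SE 0.66, adjusted p = 0.0171).

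Of the 51 gene lists examined, 48 had no called member, and the lists with one were the erythroid, the mast cell and the circadian list. Only 0.211% of all genes were called, so most lists would hold 0 at that share. Mitochondrially encoded genes were lower by value in all 13 members, with a median of -1.18, and 13 of 13 had an unadjusted p under 0.05, against 6.5% of all genes in the lower direction, but edgeR called 0 and DESeq2 10, lower. ND1, a subunit of respiratory complex I, had 16913, 3413 and 7721 CPM at day 1 and 3266, 3135 and 4006 CPM at day 3 (-1.43, adjusted p = 0.0995). Day 1 replicates 1 and 3 were the high ones in ND1, and day 1 replicate 2 lay within the day 3 range. The median of the 13 was -0.02 without the libraries above 6% mitochondrial counts. Those libraries were left out by a share made up largely of these same genes, and only replicate 2 of day 1 remained. A median near 0 was thus set in advance. Nuclear genes of the respiratory chain had a median of 0.08 over 27 members, with 0 called by edgeR or DESeq2. At an unadjusted p under 0.05, 3 of the 27 were higher, against 5.81% of all genes in that direction.

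No gene of cell division or of the main lung cell types passed the test, but only 0.211% of all genes did. At that share lists of this size would mostly hold 0 called members. DESeq2 called 1.06% of all genes, and at an unadjusted p under 0.05 5.81% were higher and 6.5% lower. Of 25 tested genes of mitosis edgeR and DESeq2 called 0, 1 was higher and 1 lower at an unadjusted p under 0.05, and the median was -0.08. Mki67, the marker of cycling cells, had 199, 181 and 152 CPM at day 1 and 162, 169 and 187 CPM at day 3 (-0.04, adjusted p = 0.959). In Mki67 the libraries of the 2 days were interleaved. Of 20 surfactant and type 2 cell genes 0 were called by either tool, 1 was higher and 4 lower at an unadjusted p under 0.05, and the median was -0.09. Of 14 type 1 cell genes 0 were called by either tool, 1 was higher at an unadjusted p under 0.05, and the median was 0.12. Of 13 endothelial genes 0 were called by either tool, with 2 higher and 1 lower at an unadjusted p under 0.05 and a median of 0.14. Kdr, the main VEGF receptor, had 89.3, 248 and 165 CPM and then 298, 276 and 224 CPM (0.67, adjusted p = 0.264), and its days overlapped.

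No gene of the lists on the response to oxygen was called, where 0.211% of all genes were. Beside the counts below, DESeq2 called 1.06% of all genes. Of all genes 5.81% were higher and 6.5% lower at an unadjusted p under 0.05. Of 16 tested genes of an oxygen response list edgeR called 0 and DESeq2 1, lower, with 1 higher and 2 lower at an unadjusted p under 0.05 and a median of -0.01. In the interaction test 1 was more positive and 4 more negative, against 2.16% and 4.44% of all genes. Over all genes the interaction count went from 1159 to 18 with mitochondrial share as a covariate. The metal-binding metallothionein gene Mt2A had 83.3, 17.1 and 51.9 CPM and then 17.5, 16.1 and 18.9 CPM (-1.54, adjusted p = 0.151, edgeR), and Mt1 had 52.3, 12.9 and 39.2 CPM and then 13.6, 14 and 15.5 CPM (-1.28, adjusted p = 0.175). Day 1 replicates 1 and 3 were the high libraries in both, as they were in mitochondrial share, and the days overlapped. Of 21 tested p53 target genes edgeR called 0 and DESeq2 1, with 2 higher and 2 lower at an unadjusted p under 0.05 and a median of 0.00. Cdkn1a had 42.3, 38.5 and 45.6 CPM at day 1 and 49.7, 48.9 and 48.8 CPM at day 3 (0.22, adjusted p = 0.814, edgeR). Of 25 tested NRF2 and antioxidant genes 0 were called by either tool, 2 were higher at an unadjusted p under 0.05 and the median was 0.07. Nqo1, a quinone reductase that NRF2 induces, had 18.2, 41.8 and 36.5 CPM and then 36.7, 37.6 and 28.4 CPM (0.09, adjusted p = 0.909), with the days interleaved. Gdf15 had 8.25, 6.27 and 11 CPM and then 8.15, 8.97 and 10 CPM (0.09, adjusted p = 0.954), and the difference between the arms passed the test (-2.32, adjusted p = 0.0352). Eln, the elastin gene of the alveolar walls, had 6332, 4482 and 4856 CPM and then 5895, 6767 and 4964 CPM (0.17, adjusted p = 0.689). Ntrk2, the neurotrophin receptor TrkB, had 57, 57.5 and 81.1 CPM and then 138, 138 and 102 CPM, apart between days but not called (0.95, adjusted p = 0.297), and the arms differed by 2.14 (adjusted p = 0.028).

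The same days in the 21%-labelled lungs gave 4295 called genes (24.4% of those tested), 2226 higher and 2069 lower. The difference between the arms in the step from day 1 to day 3 was tested as an interaction over the same 17571 genes, and 1159 passed (6.6%). The step was more positive in the 85%-labelled arm for 379 of these (2.16%) and more negative for 780 (4.44%). Of the 1159, 892 were called in the 21%-labelled arm and 22 in the 85%-labelled arm, counting 5 in both, and 250 in neither. The interaction count was 18 with mitochondrial share as a covariate, 136 with the gene length trend as a covariate and 13 without the libraries above 6% mitochondrial counts. Between day 1 and day 3 the length trend moved from 0.16 to 0.253 down to -0.385 to -0.255 in the 21%-labelled libraries, while their mitochondrial share went from 2.71% to 3.03% up to 3.95% to 7.14%. The part of these measures in the result was not tested.

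Of the 27 genes that rose in the 85%-labelled lungs, 17 passed the interaction test, 7 were called higher in the 21%-labelled lungs as well and 5 were called lower there. Of the 10 that fell, 5 passed the interaction test, and 1, Aldh6a1, was called lower in the 21%-labelled lungs as well. The erythroid list differed between the arms: 7 of 18 members passed the interaction test, all more positive in the 85%-labelled arm (2.16% of all genes), and in the 21%-labelled arm 4 were called lower (11.8% of all genes) and 0 higher, with a median of -0.86. Slc4a1 had 41.9, 52.9 and 38.3 CPM at day 1 and 12.1, 15.1 and 42.1 CPM at day 3 in the 21%-labelled lungs, and the difference between the arms was 3.01 (SE 0.53, adjusted p = 0.0072, edgeR). The haemoglobin share of those libraries was 2.22%, 2.16% and 1.61% at day 1 and 0.534%, 0.759% and 2.01% at day 3, so that replicate 3 was the high one of day 3 in both measures. Sptb gave a difference of 3.00 (SE 0.44, adjusted p = 0.0034) and Epb42 of 3.18 (SE 0.47, adjusted p = 0.0034). Mast cell genes differed likewise, with 6 of 9 members more positive in the 85%-labelled arm (2.16% of all genes). In the 21%-labelled arm 6 of 9 were called lower (11.8% of all genes), with a median of -1.30. Mcpt1l1 stood at 8.2, 4.84 and 6.03 CPM and then at 0.857, 1.84 and 2.03 CPM in the 21%-labelled lungs, the reverse of its order in the 85%-labelled lungs, and the difference was 5.14 (SE 0.76, adjusted p = 0.0034).

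Of the 10 named genes with the smallest interaction p, those not called in the 85%-labelled lungs were called in the 21%-labelled lungs. Aebp1, a secreted protein of the collagen matrix, had 707, 692 and 718 CPM at day 1 and 315, 292 and 294 CPM at day 3 in the 21%-labelled lungs, and 352, 444 and 477 CPM and then 363, 493 and 423 CPM in the 85%-labelled lungs (difference 1.24, SE 0.21, adjusted p = 0.0056, edgeR). Myo5b, a motor of vesicle recycling, gave a difference of 1.44 (SE 0.23, adjusted p = 0.0051), and Msmo1, a cholesterol synthesis enzyme, of 1.13 (SE 0.20, adjusted p = 0.0072). In both the 85%-labelled step was small by value, at 0.13 and 0.22. The mitosis genes Troap (-2.85, SE 0.44, adjusted p = 0.0042) and Mastl (-1.89, SE 0.32, adjusted p = 0.0067) and the inflammasome family gene Nlrp10 (-1.69, SE 0.29, adjusted p = 0.0072) were more negative in the 85%-labelled arm. Of the 25 mitosis genes, 19 were called higher in the 21%-labelled arm (median 0.98), against 12.7% of all genes, and 14 passed the interaction test, all more negative in the 85%-labelled arm, against 4.44% of all genes.

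Across the 5 days, Slc4a1, Hbb and Cry1 are described by value in the 85%-labelled arm. All were called between day 1 and day 3, which by itself favours a high mean on 1 of these days. Slc4a1 had 37.7 ± 8.75 CPM at day 1 and 158 ± 55.6 CPM at day 3, and the later means were 52.4 ± 10.7, 75.2 ± 8.39 and 12.2 ± 1.64 CPM (SD, n = 3). Hbb had 3235 ± 2585 CPM at day 1, 18986 ± 3149 at day 3 and 4970 ± 697 at day 7. Day 3 was thus the highest of the 5 means for both genes. Cry1 stood at 40.7 ± 0.971 CPM at day 1 and at 23.5 ± 1.22, 28.9 ± 1.25, 26.3 ± 2.38 and 29.4 ± 3.01 CPM on days 3, 7, 10 and 14, so that each later mean lay below that of day 1. Changes between the later days were not tested here.

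**Figure D4:**
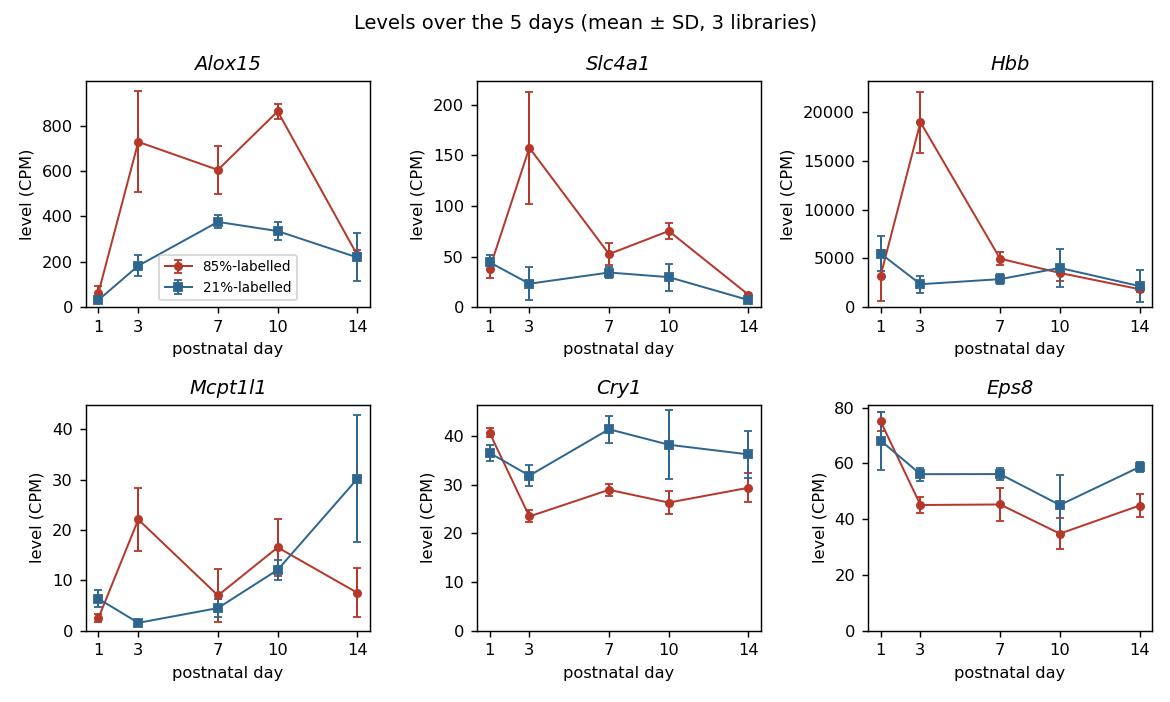
Level (CPM, mean ± SD of 3 libraries) of Alox15, Slc4a1, Hbb, Mcpt1l1, Cry1 and Eps8 against postnatal day in the 85%-labelled (circles) and 21%-labelled (squares) lungs. Slc4a1 and Hbb have their highest 85%-labelled mean at day 3, at 158 and 18986 CPM, and Cry1 goes from 40.7 CPM at day 1 to 23.5 CPM at day 3.

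The number of calls differed between settings. DESeq2 called 186 genes (1.06%), among them 36 of the 37, and edgeR with RLE size factors called 37, including 36 of the same genes. A covariate for mitochondrial share gave 724 calls (4.12%), which included 28 of the 37, and a covariate for the gene length trend gave 61 (0.347%), which included 35. When the libraries above 6% mitochondrial counts were left out, day 1 held 1 library, which is assumed to vary like the other groups, and 4 genes were called: Alox15, Ankrd46 (-1.26, adjusted p = 0.014), E2f6 (-0.74, adjusted p = 0.0216) and Gnb3 (8.09, adjusted p = 0.0326), the last 3 chosen after their values were seen. In the authors' deposited table of this comparison 70 of 21649 genes had an adjusted p under 0.05, 54 higher and 16 lower, and 20 of these are among the 37.

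**Figure D5:**
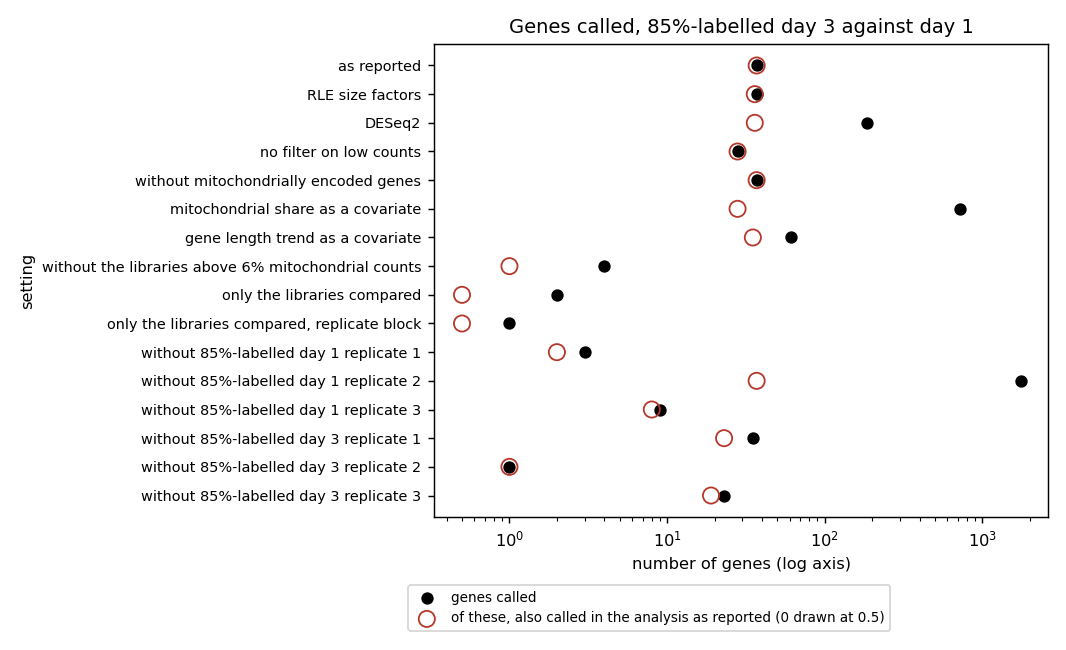
Number of genes called between day 1 and day 3 in the 85%-labelled lungs (log axis) under each setting (filled circles), and how many of them are among the 37 reported (open circles, with 0 drawn at 0.5). The count was 1747 without day 1 replicate 2 and 1 without day 3 replicate 2.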

How the data were processed

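Gene expression was measured by mRNA sequencing of lung tissue in 30 libraries (10 groups of 3), of which the 6 libraries of 85%-labelled days 1 and 3 are compared. The authors' deposited table gives raw counts per gene, whole numbers, for 35224 genes (32883 with rat Ensembl IDs and 2341 with IDs of the authors' own), with gene lengths. The authors also deposited FPKM, log2 fold changes and p-values, and none of these entered a test. Per the submitters' processing notes the builds were GRCm38 and mm10, both mouse, while the IDs are those of rat genes. Aligner, counting tool, strand setting and annotation: not given in the sources used here. No per-sample column was left unmapped.

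Counts were fitted with edgeR 4.0.16 in R 4.3.3: filterByExpr, which left 17571 genes, TMM scaling and the robust quasi-likelihood model with 1 mean per group over the 30 libraries (20 residual degrees of freedom), with Benjamini-Hochberg adjustment over genes. The SE is an approximation, the size of the log2 fold change over the root of its F statistic. DESeq2 1.42.0 served as an alternative, beside other scaling, filters, covariates, a replicate block and leaving out each library. The steps were also run on simulated counts, in which libraries were not made to differ in mitochondrial share or length trend. That run cannot show how the real calls depend on these measures. Library measures were compared by exact permutation with scipy 1.17.1. Counts measure each gene with counting error in addition to the spread between libraries.

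Named genes were up to 12 rises and 12 falls of the largest size among called nuclear genes that had a characterised symbol, reached a log2 CPM of 3 on average and did not overlap between the days, taking first those still called with mitochondrial share as a covariate (6 falls met the rule), up to 6 members of each list described and any named for not passing, the 10 smallest interaction p-values, 8 fixed genes and the 13 mitochondrially encoded genes. Some genes that the rule names are not reported here. The members and lists were chosen with earlier results of these data known. Promoter windows were matched by symbol to a RefSeq table of GRCr8, in which 24 of the 37 called genes, and 4 of the 6 erythroid ones, have an entry.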

Additional observations from a re-analysis of the deposited data

Results flagged for a closer look

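A difference between the arms in the step from day 1 to day 3, tested as an interaction in edgeR, was found for 1159 of 17571 genes. Among the genes called in the 85%-labelled lungs, the step there was more positive for Mcpt1l1 by 5.14, Hbb by 3.78, Epb42 by 3.18, Slc4a1 by 3.01, Sptb by 3.00, Add2 by 2.80 and Rhd by 2.75 on the log2 scale. It was also more positive for Ifit1bl by 2.47, Emb by 2.42, Trank1 by 2.41, Spock3 by 1.79, Slc25a37 by 1.72, Rbm38 by 1.45 and Ubac1 by 0.86, and for 2 of the authors' own IDs by 4.35 and 2.35. The difference was -3.94 for Rnase3, -2.06 for AC123346.1, -1.38 for AABR07018038.1, -1.35 for Ankrd13d and -0.60 for Cry1. Among genes not called in the 85%-labelled lungs it was 1.44 for Myo5b, 1.24 for Aebp1, 1.13 for Msmo1, -1.69 for Nlrp10, -1.89 for Mastl and -2.85 for Troap. Mitochondrial share went from 5.31% to 19.1% down to 4.66% to 6.56% in the 85%-labelled libraries and from 2.71% to 3.03% up to 3.95% to 7.14% in the 21%-labelled libraries, and its part in these differences was not tested.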

How the results depend on the processing

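None of the 37 calls of the 85%-labelled step changed direction in the alternatives that tested it. The count of calls was 186 with DESeq2, 724 with mitochondrial share and 61 with the gene length trend as a covariate, 4 without the libraries above 6% mitochondrial counts, 2 with only the 6 libraries and 1 to 1747 when single libraries were left out. The 21%-labelled step gave 1118, 210 and 1956 calls with mitochondrial share, with the length trend and without those libraries, 2038 at a size threshold of 1 and 1201 to 5167 when single libraries were left out. The interaction gave 2437 calls with DESeq2, 469 with no filter on low counts, 18 and 136 with the 2 covariates, 13 without those libraries, 24 with only the 12 libraries compared and 61 to 5573 when single libraries were left out. Of the erythroid list, 11 members were called with mitochondrial share as a covariate, 0 without those libraries, 0 with only the 6 libraries and 0 to 9 when single libraries were left out. The cause of these differences was not tested. Pf4, a platelet gene that was not called (-0.67), was called higher with mitochondrial share as a covariate (0.72). Equal replicate numbers are not known to pair the libraries. The correlation of deviations between same-numbered libraries was -0.101, 0.245 and 0.19 in the 85%-labelled arm, and between different-numbered libraries -0.364 to 0.249. These values cannot decide whether the libraries were paired, because each day has only 3. With a replicate block 1 gene was called in the 85%-labelled step, 1 in the 21%-labelled step, 0 in the interaction and 0 of the erythroid list.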

Other observations

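The lists of aerocyte and collagen genes held no called member but stood above 0 by value. Of 9 markers of aerocytes, the thin capillary cells of the alveolus, all 9 were higher by value, with a median log2 fold change of 0.50, and 5 reached an unadjusted p under 0.05, against 5.81% of all genes in that direction, while edgeR and DESeq2 called 0. Car4, the membrane carbonic anhydrase of these cells, had 45.5, 52.3 and 67.8 CPM at day 1 and 96.5, 120 and 92.7 CPM at day 3 (0.90, adjusted p = 0.193, edgeR). Its days did not overlap. In the 21%-labelled arm 4 of the 9 were called higher, against 12.7% of all genes, Car4 among them (1.06, adjusted p = 0.0117). All 17 tested collagen genes were at or above 0 by value, with a median of 0.38, 4 at an unadjusted p under 0.05 and 0 called by edgeR or DESeq2. The collagen median depended on the setting. It was -0.09 with mitochondrial share as a covariate and 0.13 without the libraries above 6% mitochondrial counts, where the aerocyte median was 0.39 and 0.41. In the 21%-labelled arm 6 of the 17 were called lower (median -0.64), against 11.8% of all genes, and 4 passed the interaction test as more positive in the 85%-labelled arm, against 2.16% of all genes. Ddit4, a stress-induced inhibitor of mTOR signalling, had 21.6, 45.6 and 49.7 CPM and then 67, 87.6 and 90.6 CPM (1.07, adjusted p = 0.0945). Csf1r, the growth factor receptor of macrophages, had 50.6, 47.6 and 52.2 CPM and then 69.1, 76.6 and 76.5 CPM (0.56, adjusted p = 0.0932). Both kept the days apart, as 6.63% of all genes did in the higher direction, and neither passed the test. Of 19 tested macrophage genes 9 were higher by value, Csf1r among them, and the median was -0.06. At an unadjusted p under 0.05, 3 of the 19 were higher and 1 lower, against 5.81% and 6.5% of all genes. For the same list edgeR called 0 and DESeq2 1, higher, while DESeq2 called 1.06% of all genes.

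A pair of genes stood at separate levels that did not follow the groups over the 30 libraries, although RGD1359290 separated days 1 and 3 of the 85%-labelled arm. RGD1359290, 1 of the 2 genes called in the 6 libraries fitted alone (-4.23, adjusted p = 0.0069) and chosen after its values were seen, stood at 10.4 to 17.1 CPM in 10 of the 30 libraries and at 115 to 500 CPM in the other 20, with none between. All 3 85%-labelled day 3 libraries were at 16.7 to 17.1 CPM, and the 3 of day 1 at 252, 443 and 255 CPM. Over the 30 libraries fitted together it was not called (adjusted p = 0.193). Mif, also chosen after its values were seen, stood at 118 CPM in 85%-labelled day 1 replicate 3 and at 0.31 to 1.83 CPM in the other 29 libraries.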
